A study of Mus musculus with 167 samples.

Results

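miR-210 is the microRNA (miRNA) best known for its rise in cells that are short of oxygen, and both strands of its hairpin, mmu-miR-210-3p and mmu-miR-210-5p, were followed across tissue, strain and thorax irradiation. The members were taken by name, as 2 of the 1915 mature mouse miRNAs counted in each of 5 tissues. In cells with little oxygen, the transcription factor HIF-1 binds upstream of the miR-210 gene and raises its transcription. The mature miRNA then lowers proteins that mitochondria need for respiration, among them the iron-sulfur cluster scaffold Iscu. In heart and vessels it is known as a marker of ischemia, and erythroid cells also make it as they mature.

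The study sought circulating miRNAs in plasma that reveal early which mice will develop late injury after whole thorax lung irradiation (WTLI). It also asked which miRNAs change in tissues and blood cells at its endpoint. Gnotobiotic C3Hf/Sed/Kam (C3H) and C57Bl/6 (C57) mice, young adults at exposure, received 1 dose of X-rays to the thorax, with lead over the rest of the body, or were sham irradiated. Lung, heart, brain and a white cell (WBC) and a red cell (RBC) fraction of blood were taken from survivors, in month 4 from C3H and in month 6 from C57. The irradiated mice are therefore those that lived to that time, and strain cannot be told apart from month.

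Lung, heart, brain and RBC were each sequenced from 35 mice, which were 8 sham irradiated and 7 irradiated C3H, all female, and 15 sham irradiated C57 (8 male, 7 female) and 5 irradiated C57 (4 male, 1 female). WBC libraries came from 5 sham irradiated and 6 irradiated C3H and from 11 sham irradiated and 5 irradiated C57 mice. The 167 libraries held 1794995 to 7865102 miRNA counts each. Values are given as RPM, the read count scaled to the same miRNA total in each library, and tests used the limma package on quantile normalised values, in which every library of a tissue is given the same distribution. An adjusted p under 0.05 counted as passing.

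The strand that makes up nearly all of the signal, its partner and the hairpin they are cut from are shown because the arms differ in their seed, the bases 2 to 8 that pair with target mRNAs. The sequences are from RefSeq (build GRCm38.p6), written 5′ to 3′. Capitals mark the seed in the mature miRNAs and mark both mature arms in the hairpin.
mmu-miR-210-3p: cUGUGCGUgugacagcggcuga
mmu-miR-210-5p: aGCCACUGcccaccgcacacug
Mir210 hairpin: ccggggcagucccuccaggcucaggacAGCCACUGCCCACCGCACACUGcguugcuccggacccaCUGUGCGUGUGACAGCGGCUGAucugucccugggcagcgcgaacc

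The hairpin of 110 bases lies on the minus strand of chromosome 7 (chr7:141221384-141221493). The 3p arm is at chr7:141221407-141221428 and the 5p arm at chr7:141221445-141221466. No other RefSeq gene overlaps the hairpin, whose nearest protein-coding neighbours are Rassf7, 2726 bases away at lower coordinates, and Gm51460, 6713 bases away at higher coordinates. Of the 1679 mature mouse miRNAs in the table, 0 others carry the seed UGUGCGU and 0 others carry GCCACUG, so the miRNA has no seed family among them. Its bases are 63.6% G or C in the 3p arm and 68.2% in the 5p arm.

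The 3p arm was counted in all 167 libraries, with 37 to 812 counts each. Counting error alone gave a 95% interval for each library's RPM, and the intervals cover counting error only. By median rank among the miRNAs of a library, mmu-miR-210-3p stood 87th in RBC, 93rd in WBC and 138th in heart, and lower in lung (176th) and brain. It was a moderately abundant miRNA in every tissue.

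**Figure D1:**
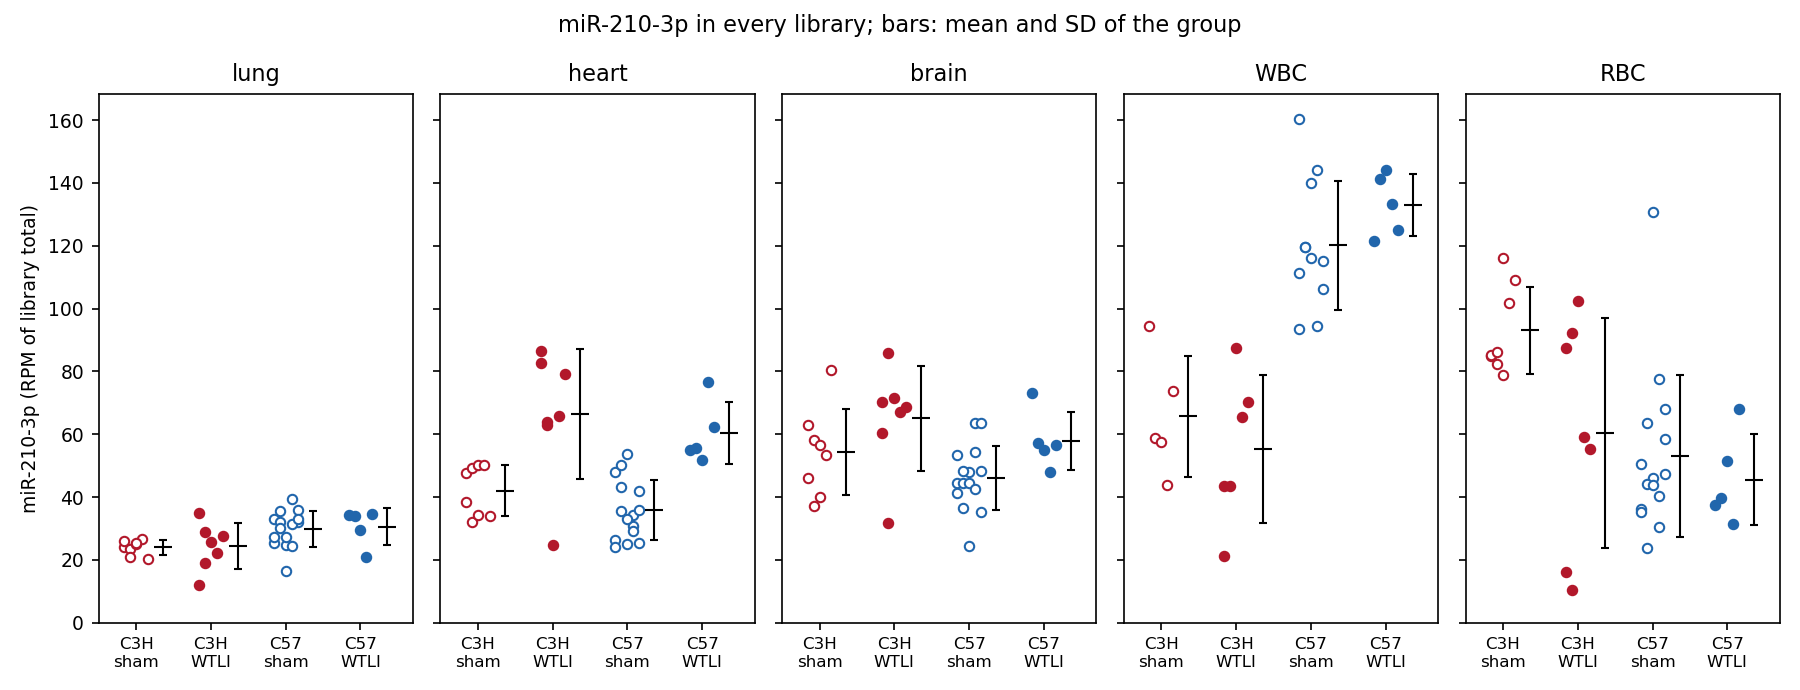
The RPM of mmu-miR-210-3p (y axis) is plotted for every library by tissue, strain and arm, with open points for sham irradiated and filled points for irradiated mice, C3H in red and C57 in blue, and bars for the group mean and SD. In heart, 6 of 7 irradiated C3H and 4 of 5 irradiated C57 libraries lie above every sham irradiated library of their strain, while the lung groups overlap.

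The 5p arm, the strand that is mostly discarded when the duplex is loaded, was rare. mmu-miR-210-5p had 283 counts against 32317 of the 3p arm over all libraries, a share of 0.868% and a ratio of 114 to 1. It was seen in 118 of 167 libraries, never with more than 12 counts. Its share of both arms was 1.50% in lung, 1.27% in heart and 1.17% in brain, and in blood it was 0.631% (WBC) and 0.403% (RBC). In the 49 libraries that held none, a count of 0 allows up to 0.566 to 1.54 RPM, by depth, taken as 3 counts of the total. By group the pooled level ran from 0.0930 RPM (exact 95% interval 0.0113 to 0.336) in irradiated C3H RBC to 1.09 RPM (0.609 to 1.79) in irradiated C57 brain.

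Several libraries stood apart or went against their labels and touch the results below. In heart, C3H irradiated mouse 3 had a summed level of the 4 cardiac muscle markers (miR-499-5p, miR-208a-3p, miR-133a-3p and miR-1a-3p) of 50690 RPM, where the other 34 heart libraries had 152407 to 298863. In RBC, C3H irradiated mice 6 and 7 had 3562 and 2463 RPM of miR-451a, an erythroid miRNA, where the other 13 C3H RBC libraries had 7511 to 28904. Another erythroid miRNA, miR-486a-5p, lay the other way, at 16703 and 22618 RPM against 4430 to 11377 in those 13. The 4 erythrocyte markers of mice 6 and 7 summed to 28566 and 31508 RPM, beside 29011 in irradiated mouse 5. Their 4 leukocyte markers (miR-150-5p, miR-223-3p, miR-142a-3p and miR-142a-5p) summed to 10912 and 8200 RPM, where the other 13 had 15919 to 44744. Over all libraries, the leukocyte markers summed to a median of 26945 RPM in RBC and 21865 RPM in WBC, and the 4 erythrocyte markers to 52074 and 40107 RPM. The blood fractions were thus not set apart by these markers, and "WBC" and "RBC" are used here as the labels of the fractions. Heart and lung were told apart: the cardiac muscle markers summed to 2569 to 8560 RPM in lung, and the 5 epithelial markers of the miR-200 family to 8381 to 37452 RPM in lung against 30.7 to 942 RPM in heart. Brain held 55497 to 112765 RPM of the 3 neural markers, where the other tissues held at most 488 RPM. In heart, C3H sham irradiated mouse 3 had 10158 RPM of the 4 leukocyte markers, where the other hearts had 767 to 3301 RPM. In lung, C57 sham irradiated mice 1 and 4 had 8007 and 9589 RPM, where the other lungs had 2351 to 6934 RPM. Lung of C57 sham irradiated mouse 4 also had the highest lung level of mmu-miR-210-3p, 39.5 RPM. In bulk samples such as these, fewer cells of a type and less RNA per cell cannot be told apart.

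In sham irradiated mice, lung held the lowest level of mmu-miR-210-3p and blood the highest. Sham irradiated lung had 16.5 to 39.5 RPM (median 26.6, n = 23), heart 24.2 to 53.7 (median 35.6, n = 23) and brain 24.4 to 80.3 (median 47.9, n = 23). RBC had 23.9 to 131 RPM (median 63.7, n = 23) and WBC 44.0 to 160.5 (median 109, n = 16). The ranges of neighbouring tissues overlapped, so the order was tested within mice.

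Each step of this order passed a two-sided permutation test of the within-mouse difference in log2(RPM + 1), adjusted over the 10 pairs of tissues. Heart was above lung in 17 of 23 mice, by 0.42 ± 0.46 (SD) on the log2 scale (permutation adjusted p = 0.000429). Brain was above heart in 17 of 23 mice, by 0.36 ± 0.49 (permutation adjusted p = 0.00316). RBC was above brain in 13 of 23 mice, by 0.35 ± 0.76 (permutation adjusted p = 0.0353), the smallest of the steps. WBC was above RBC in 12 of 16 mice, by 0.80 ± 1.07 (exact permutation adjusted p = 0.0118). The widest gap, WBC over lung, held in 16 of 16 mice and was 1.77 ± 0.40 (exact permutation adjusted p = 7.63e-05).

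The place of brain in the order depended on the scaling, and so did the step between the blood fractions. When each library was scaled to the geometric mean of the 98 miRNAs with at least 10 counts in every library, brain lay below heart by 0.39 (19 of 23 mice, permutation adjusted p = 6.67e-05). With TMM factors, which trim the miRNAs that differ most between libraries, brain lay below heart by 1.16 in 23 of 23 mice (permutation adjusted p = 2e-05, from the smallest raw p that these permutations can give, 1e-05) and below lung by 0.28 (permutation adjusted p = 0.00288). C57 carried the last of these, with TMM means of 4.35 in brain and 4.79 in lung on the log2 scale, where C3H had 4.49 and 4.48. The WBC over RBC step shrank to 0.13 with the geometric mean and 0.27 with TMM (exact permutation adjusted p = 0.411 and 0.197), over strains that lay opposite ways. With the geometric mean WBC and RBC had means of 6.42 and 6.05 in C57 but 6.32 and 6.81 in C3H, and with TMM 6.91 and 6.37 in C57 but 6.83 and 7.44 in C3H. Lung stayed below heart under the library total, the geometric mean and TMM, and WBC and RBC stayed above lung, heart and brain under all 3. By strain, the heart over lung step was 0.77 in C3H (8 of 8 mice, exact permutation adjusted p = 0.0156) and 0.23 in C57 (9 of 15 mice, exact permutation adjusted p = 0.0722). The RBC over brain step was 0.79 in C3H (8 of 8 mice, exact permutation adjusted p = 0.0156) and 0.11 in C57 (5 of 15 mice, exact permutation adjusted p = 0.651), so C3H carried most of it.

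**Figure D2:**
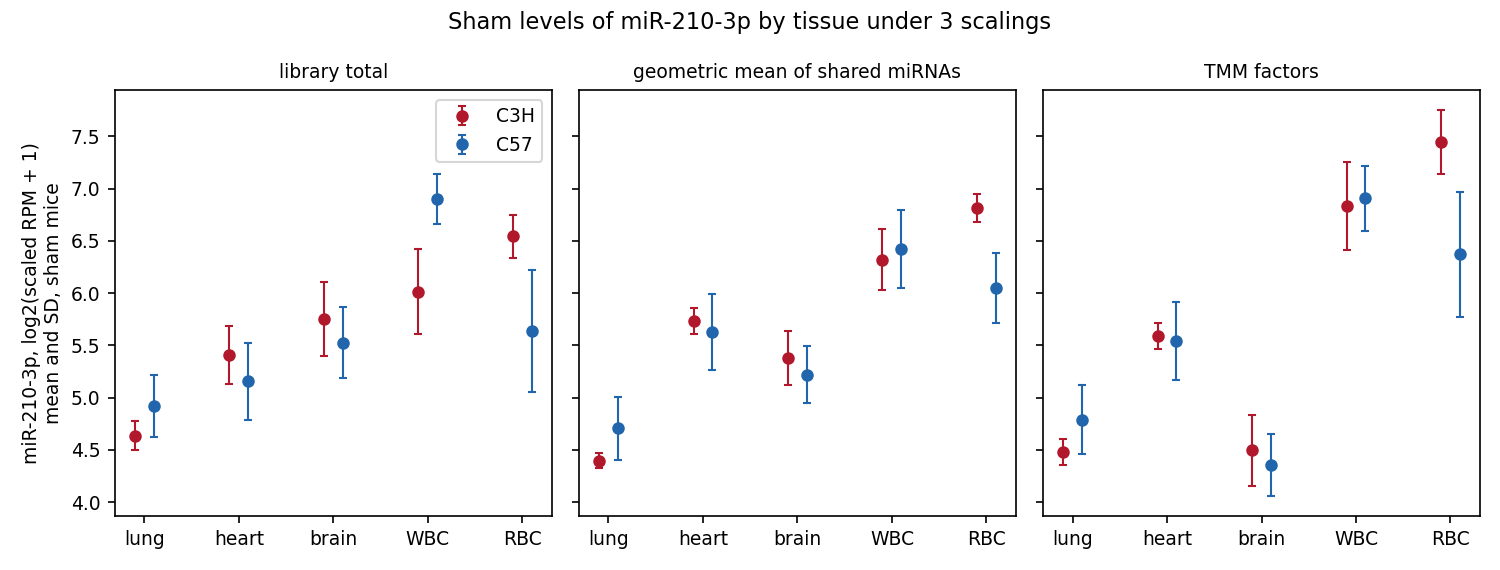
The mean and SD over sham irradiated mice of mmu-miR-210-3p on a log2(scaled RPM + 1) axis is shown for 5 tissues, C3H in red and C57 in blue, with 1 panel for each of 3 scalings. Brain lies above heart with the library total and below it with the geometric mean and TMM, whereas lung lies below heart in all 3 panels.

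The order of the blood fractions was the same in every C57 mouse and varied among C3H mice. In C57, the ratio of WBC to RBC within a mouse was above 1 in 11 of 11 sham irradiated mice (1.49 to 6.03, median 2.59) and in 5 of 5 irradiated mice (1.84 to 4.25). In sham irradiated C3H, WBC exceeded RBC in 1 of 5 mice (ratio 0.403 to 1.11, median 0.712), and in irradiated C3H in 4 of 6 mice (0.426 to 4.38, median 1.33). The RBC minus WBC difference was 0.53 ± 0.56 in C3H (exact permutation adjusted p = 0.156, where 5 mice cannot give a raw p under 0.0625) and −1.41 ± 0.56 in C57 (exact permutation adjusted p = 0.00163). The difference between these 2 values was not tested as such.

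In RBC, sham irradiated C3H had 78.7 to 116 RPM (median 85.7, n = 8) and sham irradiated C57 23.9 to 131 (median 46.2, n = 15), and 14 of the 15 C57 libraries lay below every C3H library. The exception was C57 sham mouse 13, a female, at 131 RPM. Among females, the limma difference of C3H minus C57 in RBC was 0.73 ± 0.21 (SE) on the log2 scale (limma adjusted p = 0.0151), in a comparison in which 18.3% of 278 miRNAs passed. With library size alone the difference was 0.76, but the limma adjusted p was 0.161. The gap also differed by the letter, A or B, in the sample titles. In letter A, C57 females had 23.9 to 58.5 RPM and C3H 82.4 to 116 RPM. In letter B they had 67.9 to 131 and 78.7 to 109 RPM, which overlap. The strain difference was not tested within a letter.

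In WBC the strains ran the other way. Sham irradiated C57 had 93.5 to 160.5 RPM (median 116, n = 11), and the 5 sham irradiated C3H libraries had 44.0, 57.6, 58.7, 73.9 and 94.6 RPM. All but 1 of the C3H libraries lay below every C57 library. The limma difference among females was −0.41 ± 0.22 (SE) after quantile normalisation (limma adjusted p = 0.193, 22.3% of 341 miRNAs passing) and −1.06 with library size alone (limma adjusted p = 0.0126), under which the median of all miRNAs was also shifted, by −0.75. The WBC difference between strains therefore turned on the scaling.

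Sham irradiated C57 males and females could be compared within 1 month. In WBC, the 4 females had 115 to 160.5 RPM (mean 134 ± 22.1 SD) and the 7 males 93.5 to 140.1 RPM (mean 112 ± 16.2 SD), with overlapping ranges. After quantile normalisation males were lower by 1.03 ± 0.21 (SE) on the log2 scale (limma adjusted p = 0.00307), where 11.1% of 341 miRNAs passed. With TMM the difference was −0.82, and with library size alone −0.26 (limma adjusted p = 0.557), with the median of all miRNAs at 0.49. The male minus female difference did not pass elsewhere. It was 0.17 in lung (limma adjusted p = 0.529, 6.05% of miRNAs passing) and 0.00 in heart (limma adjusted p = 1, 34.9%). It was 0.21 in brain (limma adjusted p = 0.411, 21.3%) and −0.20 in RBC (limma adjusted p = 0.557, 14.4%).

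Strain made no difference that passed in the solid organs. For females, C3H minus C57 was −0.26 in lung (limma adjusted p = 0.356, 14.4% of miRNAs passing), 0.05 in heart (limma adjusted p = 0.857, 31.6%) and 0.30 in brain (limma adjusted p = 0.256, 15% passing). The 95% intervals of these log2 differences were −0.59 to 0.07, −0.33 to 0.43 and −0.08 to 0.69.

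Irradiation was followed by a higher level of mmu-miR-210-3p in heart, in both strains. C3H hearts had 32.1 to 50.4 RPM (median 43.1, mean 42.1 ± 8.14 SD, n = 8) after sham irradiation and 24.9 to 86.6 RPM (median 65.7, mean 66.6 ± 20.7 SD, n = 7) after WTLI. Of the irradiated hearts, 6 of 7 lay above every sham irradiated heart, between 63.1 and 86.6 RPM. The remaining heart, C3H irradiated mouse 3 with 24.9 RPM (107 counts, exact 95% interval 20.4 to 30.1 RPM), lay below every sham irradiated heart and was the library with low cardiac muscle markers. The mean level was 1.58 times that of sham irradiated hearts.

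In C57 hearts the change was of the same size. Sham irradiated hearts had 24.2 to 53.7 RPM (median 34.2, mean 35.8 ± 9.60 SD, n = 15), and the 5 irradiated hearts had 51.8, 55.1, 55.7, 62.3 and 76.6 RPM (mean 60.3 ± 9.88 SD). All 5 lay above the sham median and 4 of them above every sham irradiated heart, with means differing 1.68-fold. The arms were not matched for sex, since 4 of the 5 irradiated hearts were male. By RPM, sham irradiated male hearts had 25.2 to 53.7 (mean 40.4, n = 8) and female hearts 24.2 to 35.8 (mean 30.6, n = 7). The 1.68-fold difference therefore includes a difference in sex between the arms.

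Both changes passed the test. The limma change was 0.80 ± 0.18 (SE) on the log2 scale in C3H heart (limma adjusted p = 0.00156) and in C57 hearts it was 0.75 ± 0.18 (limma adjusted p = 0.00734). Of the 312 heart miRNAs tested, 16.7% passed in C3H and 3.53% in C57, so in C57 heart it was 1 of 11 miRNAs called. Neither change reached the minimum of 1.17 on the log2 scale that the study set for its own lists. The strain by irradiation interaction in heart was 0.05 ± 0.25 (SE, 95% interval −0.46 to 0.57, limma adjusted p = 0.935), where limma called 0 of 312 miRNAs, 51 of which had an unadjusted p under 0.05, while DESeq2 called 4 and edgeR 0.

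Without C3H irradiated mouse 3, the C3H heart change was 0.94 (limma adjusted p = 6.32e-05), so this library made it smaller. Leaving out any other single animal gave 0.74 to 0.83 in C3H, with every limma adjusted p at or below 0.00664. In C57 heart the range was 0.62 to 0.88, and without C57 irradiated mouse 4, the highest heart, the limma adjusted p was 0.0598. With TMM, edgeR and DESeq2 the C3H heart change was 0.71, 0.75 and 0.74 and the C57 heart change 0.71, 0.70 and 0.69, with adjusted p values of 0.000417 to 0.00826. With library size alone C3H heart gave 0.59 (limma adjusted p = 0.0525), with the median of all miRNAs at −0.17, and C57 heart gave 0.79 (limma adjusted p = 0.0165).

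Sample titles carry a letter, A or B, whose meaning is not given. In C3H sham irradiated hearts the 4 libraries of letter A had 47.8 to 50.4 RPM and the 4 of letter B 32.1 to 38.4 RPM, without overlap. Within letter B all 4 irradiated C3H hearts (63.8 to 82.5 RPM) lay above the 4 sham irradiated hearts, with a limma change of 0.95 (limma adjusted p = 0.00626). Within letter A, which holds mouse 3, the change was 0.58 (limma adjusted p = 0.136). For C57 heart it was 0.85 in letter A and 0.61 in letter B (limma adjusted p = 0.161 and 0.119), and 0.77 among males alone (limma adjusted p = 0.0958).

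Several miRNAs listed here as markers of cell types also moved in the irradiated hearts. Of the 3 ciliated cell markers, both that could be tested rose: mmu-miR-34b-3p by 2.21 in C3H and 1.08 in C57, and mmu-miR-34c-5p by 2.43 and 1.25 (log2 scale, largest limma adjusted p = 0.00734), while miR-449a-5p was under the filter in heart. Their summed level was 54.3 to 150.4 RPM in sham irradiated and 165 to 643 RPM in irradiated C3H hearts, and 24.3 to 97.7 and 64.0 to 150.1 RPM in C57. The paper names miR-34b-3p and miR-34c-3p among plasma miRNAs changed after WTLI that also changed in C3H heart. Whether their rise in heart came from ciliated cells was not tested. Of the 4 cardiac muscle markers, 1 fell in C3H, mmu-miR-499-5p by 0.85, and 0 passed in C57 (0 also at an unadjusted p under 0.05). Their summed level was 216176 to 291001 RPM in sham irradiated and 50690 to 246805 RPM in irradiated C3H hearts, and 222477 to 298863 and 215940 to 245867 RPM in C57. Of the 4 leukocyte markers, 1 passed in each strain, the lymphocyte miRNA mmu-miR-150-5p, which fell by 1.63 in C3H and 0.85 in C57. Their summed level had a median of 1570 RPM in sham irradiated and 1084 RPM in irradiated C3H hearts, but of 1594 and 1974 RPM in C57 hearts, so in C57 the sum lay the other way. Of the 4 erythrocyte markers, mmu-miR-451a and mmu-miR-144-5p fell in C3H heart by 1.33 and 1.09. The sum of all 4 had medians of 862 RPM in sham irradiated and 451 RPM in irradiated C3H hearts, and 694 and 552 RPM in C57. Of the 2 endothelial markers 0 passed in limma, with 1 in C3H and 0 in C57 at an unadjusted p under 0.05, but their summed level had higher medians after WTLI in both strains, 326652 and 356339 RPM in C3H and 323687 and 351580 RPM in C57. Of the 4 mesenchymal markers, mmu-miR-145a-5p fell by 0.89 in C3H. The medians of their sum were 56137 and 49077 RPM in C3H and 44219 and 48460 RPM in C57. Of the 5 epithelial markers 0 passed in limma (1 in each strain at an unadjusted p under 0.05), with medians of 159 and 128 RPM in C3H and 127 and 92.0 RPM in C57. The part of these cells in the change of miR-210 was not tested.

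**Figure D3:**
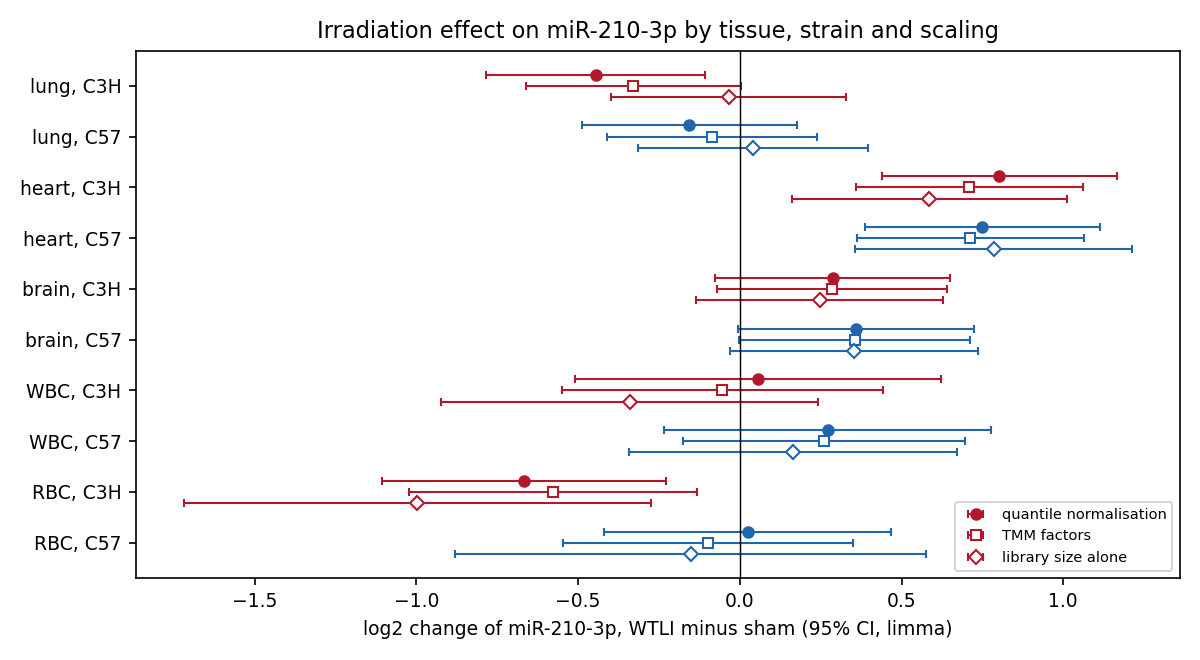
The log2 change of mmu-miR-210-3p from sham irradiated to irradiated mice (x axis, 95% confidence interval from limma) is shown for each tissue and strain under 3 scalings, with filled circles for quantile normalisation, squares for TMM factors and diamonds for library size. Only the heart intervals lie above 0 under all 3 scalings, between 0.59 and 0.80 for the estimates, and C3H lung moves from −0.45 to −0.03 as the scaling changes.

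Lung showed no change in mean RPM. C3H lungs had 20.4 to 26.6 RPM (median 24.5, mean 24.0 ± 2.29 SD, n = 8) after sham irradiation and 12.2 to 34.9 RPM (median 25.6, mean 24.3 ± 7.36 SD, n = 7) after WTLI. The irradiated lungs spread to both sides of the sham range, with 3 above and 2 below every sham irradiated lung. The 2 below carried title letter A and the 3 above letter B. In letter A, irradiated C3H lungs had 12.2 to 25.6 RPM and sham irradiated ones 23.6 to 26.6 RPM. In letter B they had 22.1 to 34.9 and 20.4 to 26.1 RPM, so the equal means cover letters that leaned opposite ways. C57 lungs had 16.5 to 39.5 RPM (median 31.5, mean 29.9 ± 5.75 SD, n = 15) and, after WTLI, 21.1, 29.4, 33.8, 34.2 and 34.7 RPM (mean 30.6 ± 5.76 SD). The ratios of the means were 1.02 in both strains.

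After quantile normalisation C3H lung gave a fall of 0.45 ± 0.17 (SE) on the log2 scale (limma adjusted p = 0.0376), in a comparison in which 33.4% of 350 miRNAs passed. On that scale the 7 irradiated lungs had log2 values of 3.75 to 4.61 and the 8 sham irradiated lungs 4.59 to 4.84. The call was lost with TMM (−0.33, limma adjusted p = 0.119), edgeR (−0.30, adjusted p = 0.152), DESeq2 (−0.29, adjusted p = 0.137) and library size (−0.03, limma adjusted p = 0.907, with the median of all miRNAs at 0.27). It was also lost without any 1 of 8 C3H mice, which were sham irradiated mice 1, 2 and 6 (−0.44, −0.42 and −0.44) and irradiated mice 1 to 5 (−0.36, −0.42, −0.44, −0.43 and −0.45), with limma adjusted p values of 0.0529 (irradiated mouse 5) to 0.102 (irradiated mouse 1). In C57 lung the change was −0.16 ± 0.16 (SE, limma adjusted p = 0.520), with 16.6% of miRNAs passing. The strain by irradiation interaction in lung was −0.29 ± 0.23 (SE, limma adjusted p = 0.622, 0.286% passing). In C3H lung all 4 cardiac muscle markers fell, by 0.60 for mmu-miR-1a-3p to 1.46 for mmu-miR-499-5p, with summed levels of 4759 to 7515 RPM after sham irradiation and 2569 to 5226 RPM after WTLI. Of the 2 endothelial markers, mmu-miR-126a-5p fell by 0.73, with sums of 380361 to 444378 and 297017 to 390147 RPM. Of the 5 epithelial markers, mmu-miR-200b-3p fell by 0.55, and of the 3 ciliated cell markers, mmu-miR-449a-5p rose by 1.51. The summed leukocyte markers had medians of 3851 RPM after sham irradiation and 4960 RPM after WTLI in C3H lung, and 3688 and 6181 RPM in C57 lung. The summed erythrocyte markers had medians of 409 and 1063 RPM in C3H lung but 408 and 191 RPM in C57 lung. The part of these cells in the lung value was not tested.

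Brain, which was shielded, gave no change that passed, although its levels leaned upward. C3H brains had 37.3 to 80.3 RPM (median 55.1) after sham irradiation and 31.6 to 86.0 RPM (median 68.8) after WTLI. C57 brains had 24.4 to 63.6 RPM (median 44.5) and, after WTLI, 47.9, 55.0, 56.4, 57.2 and 73.1 RPM. All 5 irradiated C57 brains lay above the sham median, and 1 above every sham irradiated brain. The 5 epithelial markers varied widely in brain, from 97.6 to 41037 RPM in sum, with medians of 1814 RPM in sham irradiated and 213 RPM in irradiated C57 brains, and of 1633 and 3801 RPM in C3H. The 5 C57 sham irradiated brains with the lowest miR-210 (mice 11 to 15, all female, 24.4 to 42.7 RPM) had 8069 to 41037 RPM of these markers. Sham irradiated C57 male brains had 44.4 to 54.3 RPM of miR-210 and female brains 24.4 to 63.6 RPM, while 4 of the 5 irradiated C57 brains were male. The part of these markers and of sex in the lean was not tested. The limma change was 0.29 ± 0.18 (SE) in C3H (limma adjusted p = 0.997) and 0.36 ± 0.18 in C57 (limma adjusted p = 0.400). The 4 C3H sham irradiated brains of letter A had 37.3 to 53.5 RPM and the 4 of letter B 56.6 to 80.3 RPM, without overlap, which is the reverse of the order in heart. No miRNA was called in brain (0% of 433), where limma left 9 miRNAs in C3H and 53 in C57 with an unadjusted p under 0.05, while DESeq2 called 0 in C3H and 9 in C57, and edgeR 0 and 3. With C57 males alone, limma called 17 in C57 brain, where mmu-miR-210-3p stood at 0.26 (limma adjusted p = 0.304).

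WBC values overlapped between arms. C3H WBC had 44.0 to 94.6 RPM (median 58.7, n = 5) after sham irradiation and 21.2 to 87.4 RPM (median 54.6, n = 6) after WTLI. C57 WBC had 93.5 to 160.5 RPM (median 116, n = 11) and, after WTLI, 121.5, 125.1, 133.2, 141.4 and 144.3 RPM, all above the sham median and none above every sham irradiated library. The limma changes were 0.06 ± 0.28 (SE) in C3H (limma adjusted p = 1) and 0.27 ± 0.25 in C57 (limma adjusted p = 0.953).

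In RBC the C3H levels leaned downward after WTLI, without passing the test. C3H RBC had 78.7 to 116 RPM (median 85.7, mean 93.0 ± 13.9 SD, n = 8) after sham irradiation and 10.5 to 102 RPM (median 59.1, mean 60.4 ± 36.5 SD, n = 7) after WTLI. Of the 7 irradiated libraries, 4 lay below every sham irradiated library. The lowest, at 10.5 and 16.02 RPM, were mice 7 and 6. These mice had the lowest miR-451a, the lowest leukocyte marker sums and the highest miR-486a-5p of the 15 C3H RBC libraries. The limma change was −0.67 ± 0.22 (SE, limma adjusted p = 0.143), and −0.30 (limma adjusted p = 0.993) without those 2 mice. Without C3H irradiated mouse 1 alone it was −0.79 (limma adjusted p = 0.0463). C57 RBC had 23.9 to 131 RPM (median 46.2, n = 15) and, after WTLI, 31.3, 37.4, 39.7, 51.4 and 68.1 RPM, with a limma change of 0.02 ± 0.22 (SE, limma adjusted p = 0.992). The low irradiated C3H libraries all carried letter B, in which the 4 irradiated libraries had 10.5 to 59.1 RPM and the 4 sham irradiated ones 78.7 to 109 RPM, while in letter A the 3 irradiated libraries had 87.6 to 102 RPM and the 4 sham irradiated ones 82.4 to 116 RPM.

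The strain by irradiation interaction was −0.07 in brain, −0.22 in WBC and −0.69 in RBC (limma adjusted p = 0.977, 1 and 0.760), with 0% of miRNAs passing in each and 21, 5 and 12 at an unadjusted p under 0.05, and edgeR called 0 in each and DESeq2 0, 0 and 1. In both blood fractions limma called 0% of the miRNAs tested in either strain. The unadjusted p was under 0.05 for 20 of 291 in C3H WBC and 12 in C57 WBC, and for 43 of 229 in C3H RBC and 14 in C57 RBC, while DESeq2 and edgeR called 0 in WBC, 22 and 12 in C3H RBC and 1 each in C57 RBC. In limma, C57 males alone gave 7 calls in C57 RBC, and a filter of 1 count in any library gave 7 in C57 WBC.

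Lung and heart, the solid organs inside the radiation field, were compared within mice and in a joint fit. All 8 sham irradiated C3H mice had more in heart than in lung, with a heart to lung ratio of RPM of 1.36 to 2.10 (median 1.78). Of the irradiated C3H mice, 6 of 7 did, with ratios of 2.21 to 7.11, and mouse 3 had 0.972. In C57 the ratio was above 1 in 9 of 15 sham irradiated mice (0.766 to 1.99, median 1.18) and in 5 of 5 irradiated mice, whose ratios were 1.61, 1.64, 1.76, 1.80 and 3.64. The ratio was thus above 1 in all but 1 of the 12 irradiated mice, and in sham irradiated C57 mice it lay on both sides of 1.

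**Figure D4:**
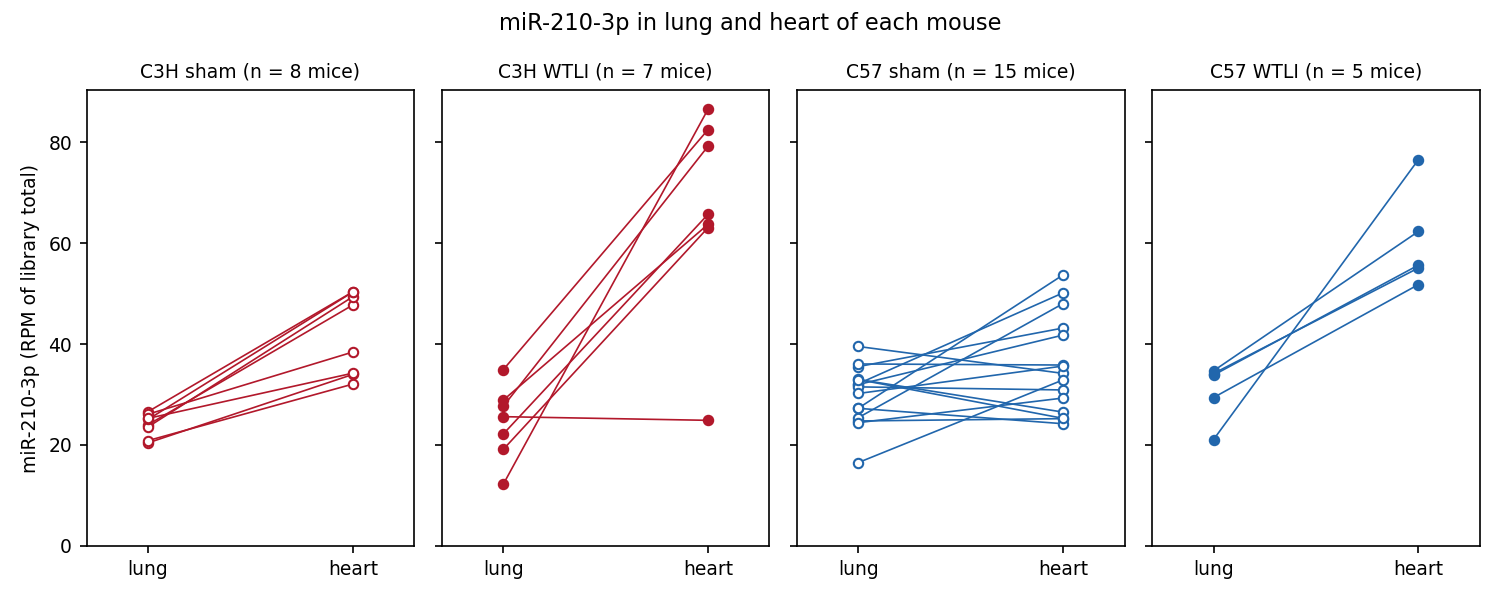
Each line joins the RPM of mmu-miR-210-3p (y axis) in lung and heart of 1 mouse, with 1 panel for each strain and arm. All 8 sham irradiated C3H lines rise from lung to heart, sham irradiated C57 lines rise in 9 of 15 mice, and the irradiated lines rise in 11 of 12 mice, the exception being C3H irradiated mouse 3.

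In a joint fit of both tissues with quantile normalisation, lung was below heart in every strain and arm. The lung minus heart difference was −1.20 ± 0.17 (SE) on the log2 scale in sham irradiated C3H (limma adjusted p = 3.47e-09) and −0.82 ± 0.12 in sham irradiated C57 (limma adjusted p = 1.59e-08). In irradiated mice it was −2.45 ± 0.18 in C3H (limma adjusted p = 4.21e-20) and −1.73 ± 0.21 in C57 (limma adjusted p = 5.32e-11). Such differences were common between these organs, since 69% and 71.1% of the 374 miRNAs tested passed in sham irradiated C3H and C57 and 65.5% and 55.3% in the irradiated mice. The strain difference of lung minus heart in sham irradiated mice was −0.38 ± 0.21 (SE, limma adjusted p = 0.203, 21.4% of miRNAs passing).

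In sham irradiated mice, the estimated lung minus heart difference depended more on the scaling than on any 1 animal. Leaving out 1 animal gave −1.23 to −1.17 in C3H and −0.87 to −0.74 in C57. TMM gave −1.11 and −0.69 in sham irradiated C3H and C57, and the ratio to the geometric mean gave −1.17 and −0.72. In the library total, the endothelial markers miR-126a-3p and miR-126a-5p made up 212137 to 451412 RPM of lung and 295324 to 416562 RPM of heart, and the cardiac muscle markers up to 298863 RPM of heart. Taking miR-126a-3p and miR-1a-3p, the leading muscle miRNA, out of the total gave −1.17 and −0.78, and taking out all markers gave −1.28 and −0.78. With the full library size the differences were −0.79 and −0.24, the latter with a limma adjusted p of 0.104, and the median of all miRNAs then stood at 0.42 and 0.60 rather than near 0. The direction was the same under all 6 scalings, and sham irradiated C57 under library size was the 1 case that did not pass.

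**Figure D5:**
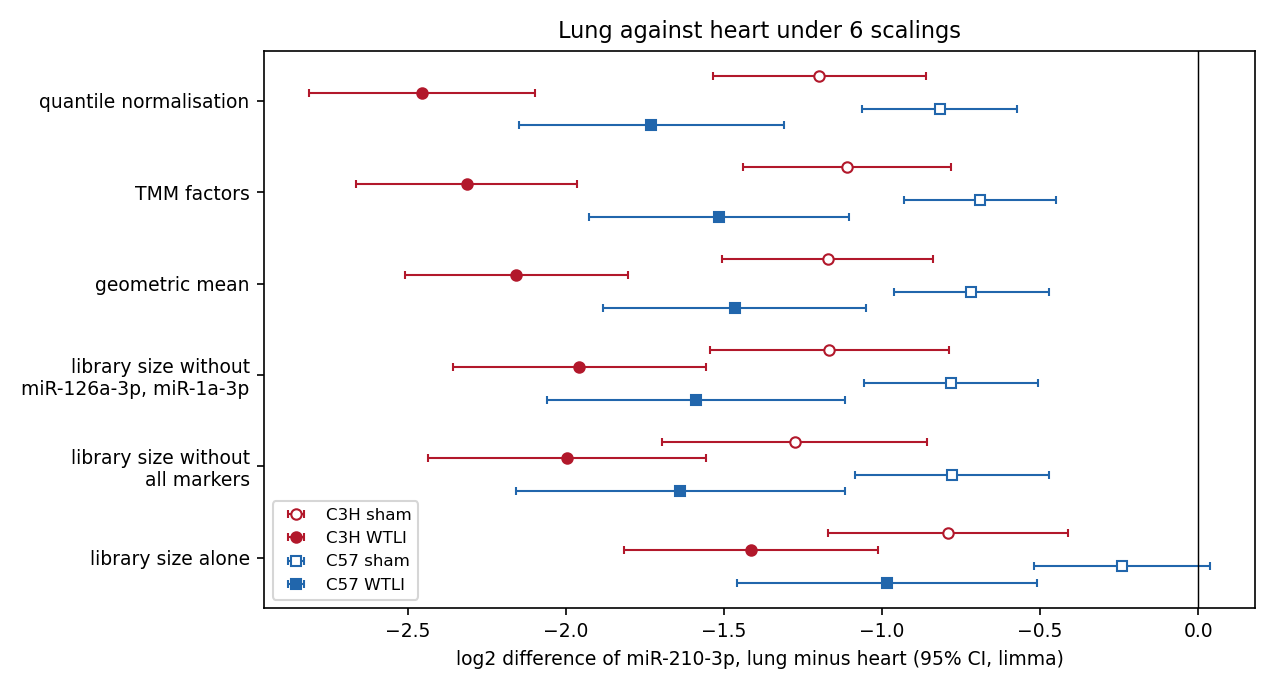
The log2 difference of mmu-miR-210-3p, lung minus heart (x axis, 95% confidence interval from limma), is shown under 6 scalings for sham irradiated (open) and irradiated (filled) C3H (red circles) and C57 (blue squares) mice. All 24 estimates are below 0, and the interval crosses 0 for sham irradiated C57 with library size alone.

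Whether the irradiation change differed between lung and heart was tested as a tissue by irradiation interaction. The change in lung minus the change in heart was −1.26 ± 0.25 (SE) in C3H (95% interval −1.75 to −0.77, limma adjusted p = 0.000211) and −0.91 ± 0.24 in C57 (95% interval −1.40 to −0.43, limma adjusted p = 0.0125). Few miRNAs passed this test, 6.68% of 374 in C3H and 5.61% in C57. With TMM the interaction was −1.20 and −0.82 (limma adjusted p = 0.000263 and 0.0261) and with the geometric mean −0.99 and −0.75 (limma adjusted p = 0.00361 and 0.0510). With library size alone it was −0.62 and −0.74 (limma adjusted p = 0.119 and 0.127), with the median of all miRNAs at 0.44 in C3H. Both calls were also lost with library size without miR-126a-3p and miR-1a-3p (−0.79 and −0.81, limma adjusted p = 0.0503 and 0.0782), with library size without all markers (−0.72 and −0.86, limma adjusted p = 0.124 and 0.0992) and with letter A alone (−1.21 and −0.89, limma adjusted p = 0.0860 and 0.359). Without C57 irradiated mouse 4, which had both the highest heart and the lowest lung level of its group, the C57 interaction was −0.65 (limma adjusted p = 0.193), and without C3H irradiated mouse 3 the C3H interaction was −1.40 (limma adjusted p = 1.22e-05).

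A mouse high in one tissue was not shown to be high in another. Deviations of log2(RPM + 1) from the group means were compared over 27 or 35 mice for 10 pairs of tissues. Between lung and heart Pearson's r was −0.04 and Spearman's rho 0.06 (permutation p = 0.849 and 0.752, adjusted p = 0.849 and 0.809), and r was 0.08 without the 2 mice farthest from the median of lung. Lung and brain had the highest values, r = 0.45 (permutation p = 0.0206, adjusted p = 0.0901) and rho = 0.45 (permutation p = 0.00630, adjusted p = 0.0630), and r was 0.34 without the 2 farthest mice. Lung and RBC had r = −0.48 and rho = −0.22 (permutation adjusted p = 0.0901 and 0.639), and r was −0.29 without the 2 farthest mice. Brain and RBC had r = −0.41 and rho = −0.30 (permutation adjusted p = 0.0901 and 0.414), and r was −0.18 without the 2 farthest mice. Brain and WBC had r = −0.39 and rho = −0.29 (permutation adjusted p = 0.0901 and 0.465), and r stayed at −0.39 without the 2 farthest mice. WBC and RBC turned from r = 0.20 (rho = −0.11, permutation adjusted p = 0.820 and 0.798) to −0.39 without the 2 farthest mice. None of the 10 pairs passed after adjustment.

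The ratio of the arms is free of the scaling between libraries, but where the 5p arm has few or no counts it follows the 3p count and the pseudocount. The mean log2 ratio of 3p to 5p counts, each plus 1, moved by 0.40 in C3H heart and 0.37 in C57 heart (exact permutation adjusted p = 0.813 and 0.837). In the 10 comparisons of tissue and strain it moved by −0.84 (C3H RBC) to 0.68 (C3H WBC), and the smallest exact permutation adjusted p was 0.701. In irradiated C3H RBC, 5 of 7 libraries held 0 counts of the 5p arm, among them mice 6 and 7 with 44 and 37 counts of the 3p arm. With 0.5 in place of 1, the move was 1.02 in C3H WBC, −0.69 in C57 lung and 0.22 in C3H heart, and the smallest exact permutation adjusted p was 0.680. The SD of the ratio within groups was 0.47 to 1.40.

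mmu-miR-210-5p itself was under the filter on low counts in the irradiation fits. In the finer grouping by sex it passed the filter in WBC, where C3H minus C57 females was 1.62 ± 0.67 (SE, limma adjusted p = 0.0875) and C57 males minus females 0.94 ± 0.65 (limma adjusted p = 0.341). With a filter of 1 count in any library, its change did not pass in any tissue and strain, and in heart it was 0.45 ± 0.56 (SE) in C3H and 0.28 ± 0.56 in C57 (limma adjusted p = 0.846 and 0.912). With the same filter it was lower in lung than in heart by 1.33 ± 0.41 (SE) in sham irradiated C57 (limma adjusted p = 0.00688), in a comparison in which 38.7% of 1148 miRNAs passed, and by 0.02 ± 0.60 in sham irradiated C3H (limma adjusted p = 1). The 15 sham irradiated C57 lungs held 14 counts of it and the 15 hearts 30.

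Other miRNAs reported to rise in hypoxic cell culture were counted beside it. The list held 13 miRNAs with miR-210-3p, all of them tested in each tissue. In C3H heart 3 rose and 0 fell, where 16.7% of all miRNAs passed: mmu-miR-210-3p, mmu-miR-103-3p by 0.60 and mmu-miR-24-3p by 0.55 on the log2 scale. In C57 heart, where 3.53% passed, mmu-miR-210-3p was the 1 that rose. The list's median change was 0.11 and 0.03 in C3H and C57 heart, beside −0.03 and 0.00 over all miRNAs. In C3H lung, where 33.4% of all miRNAs passed, 2 rose, mmu-miR-103-3p by 0.55 and mmu-miR-27b-3p by 0.50, and 3 fell, mmu-miR-210-3p with mmu-miR-26a-5p by 0.76 and mmu-miR-26b-5p by 0.75. In C57 lung, where 16.6% passed, mmu-miR-27b-3p rose by 0.54 and mmu-miR-23b-3p by 0.26. The list's median was −0.29 and −0.07 in C3H and C57 lung, beside −0.08 and −0.05 over all miRNAs. For brain, WBC and RBC limma called 0 of the 13 in either strain, with 0 to 3 at an unadjusted p under 0.05.

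A second list held 6 miRNAs tied to the HIF pathway through their targets, such as miR-17-5p, miR-20b-5p and miR-155-5p, which target Hif1a mRNA, and mmu-miR-322-5p, which targets Cul2, a part of the ligase that marks HIF for decay. In C3H heart (16.7% of all miRNAs passing) mmu-miR-322-5p rose by 0.53, and in C57 heart (3.53%) limma called 0 of the 6, with 0 at an unadjusted p under 0.05. In lung mmu-miR-322-5p rose by 0.61 in C3H (33.4%) and 0.98 in C57 (16.6%), and mmu-miR-20a-5p fell by 0.55 in C3H. For the tissue by irradiation interaction, 1 of these 6 passed in C57 (5.61% of all miRNAs passing), mmu-miR-322-5p at 1.02, and limma called 0 in C3H (6.68%), with 1 at an unadjusted p under 0.05. The median of the list was −0.36 and 0.14 in C3H and C57 heart and −0.02 and 0.33 in C3H and C57 lung.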

How the data were processed

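The authors extracted miRNA, made QIAseq libraries, sequenced them on a NextSeq and aligned trimmed reads to mouse miRNAs of mm10 in BaseSpace, and rejected runs with few miRNA reads. They deposited raw counts per mature miRNA in 1 table per tissue, of 1794995 to 7865102 counts per library. Whether molecular identifiers were used is not given in the sources used here, so intervals cover counting error only. No pair of replicate libraries agreed within counting noise. Tests followed the methods of the study, with voom, quantile normalisation and limma 3.58.1 (R 4.3.3) on all groups of a tissue, or of lung and heart together. filterByExpr removed low miRNAs, and Benjamini-Hochberg adjustment ran over all miRNAs tested. edgeR 4.0.16, DESeq2 1.42.0, TMM, library size, other filters, letter, sex and leaving out each animal were alternatives. Levels across tissues and arm ratios used permutation tests (100000 resamples or exact). In a test on simulated data over 309 heart miRNAs, limma called 92.1% of 38 changed by 1 on the log2 scale in C3H and 71.1% in C57. The simulation gave all groups the same profile and the same spread. Power for smaller changes, or for groups with a wider spread, was not tested. Lung and heart came from the same mice by their labels, and the deviations of a mouse's lung and heart over 179 miRNAs correlated by −0.69 to 0.68 (median 0.10). The named miRNAs are miR-210, the 5 of the closest pattern over group means, and hypoxia list members that passed. Marker miRNAs are named outside that rule, after their values were seen. The members and lists were chosen with earlier results of these data known.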

Additional observations from a re-analysis of the deposited data

Results flagged for a closer look

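Among 15 groups of 5 to 8 libraries, 1 library stood apart by the gap to its nearest neighbour, and chance sets apart about 1 group in 20. This was heart of C3H irradiated mouse 3, with 24.9 RPM of mmu-miR-210-3p where the other irradiated C3H hearts had 63.1 to 86.6 RPM. Its cardiac muscle markers summed to 50690 RPM. The irradiation change differed between lung and heart in both strains by the test of the difference itself, with lung minus heart at −1.26 in C3H and −0.91 in C57 on the log2 scale, and neither passed with library size alone, with library size without the marker miRNAs or with letter A alone. In C57 it also did not pass with the geometric mean (−0.75), with letter B alone (−0.78) or without irradiated mouse 4 (−0.65).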

How the results depend on the processing

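The direction and the side of the threshold were kept in 348 of 423 comparisons of a result with an alternative, where 43 lost the call, 2 gained it and 30 changed sign, 4 of them from a called result. Leaving out 1 animal at a time kept both in 1202 of 1247 cases. The causes were not tested. mmu-miR-210-5p had at most 12 counts per library, and its power to show an irradiation change was not tested.

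For C3H heart the change lost its call with letter A alone (0.58), with library size (0.59), with library size without miR-126a-3p and miR-1a-3p (0.58) and in an exact permutation of log2 RPM (0.59). For C57 heart it did so with males alone (0.77), letter A alone (0.85) and letter B alone (0.61), and leaving out 1 animal gave 0.62 to 0.88. The heart interaction of strain and irradiation turned to −0.20 with library size, −0.18 without miR-126a-3p and miR-1a-3p and −0.0037 with TMM, and ranged from −0.073 to 0.20 over left-out animals, and the brain interaction ranged from −0.16 to 0.058.

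For C3H lung the call was lost with 1 count in any library (−0.44) or 10 counts in every library (−0.38) as the filter, DESeq2 (−0.29), edgeR (−0.30), letter A (−0.66) or letter B (−0.28) alone, TMM (−0.33), library size (−0.035), library size without miR-126a-3p and miR-1a-3p (−0.20) and exact permutation of log2 RPM (−0.034), and left-out animals gave −0.51 to −0.36, with the call lost for 8 of 35. C57 lung turned to 0.042 with library size and to 0.038 with log2 RPM.

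The lung minus heart irradiation interaction lost its call in C3H and C57 with library size (−0.62 and −0.74), without miR-126a-3p and miR-1a-3p (−0.79 and −0.81), without all markers (−0.72 and −0.86) and with letter A alone (−1.21 and −0.89). In C57 it also did so with letter B alone (−0.78) and the geometric mean (−0.75), and left-out animals gave −1.06 to −0.65. Lung minus heart in sham irradiated C57 lost its call with library size (−0.24). With the animal as a block, which pairs the lung and heart of a mouse, the interaction was −1.26 in C3H and −0.92 in C57 and no call on lung against heart changed. The block together with library size gave −0.63 and −0.74 for the interaction and −0.24 for sham irradiated C57, none of which passed.

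In blood, the C57 RBC change turned to −0.19 with DESeq2, −0.11 with edgeR, −0.10 with letter B alone, −0.15 with library size, −0.15 without miR-126a-3p and miR-1a-3p, −0.10 with TMM and −0.15 with log2 RPM, and left-out animals gave −0.088 to 0.15. The C3H WBC change turned to −0.051 with DESeq2, −0.053 with edgeR, −0.28 with letter A alone, −0.34 with library size, −0.34 without miR-126a-3p and miR-1a-3p, −0.054 with TMM and −0.33 with log2 RPM, and left-out animals gave −0.022 to 0.12. The C3H RBC change ranged from −0.79 to −0.50. With library size and without miR-126a-3p and miR-1a-3p, the strain difference in RBC lost its call (0.76 and 0.76), the sex difference in WBC lost it (−0.26 and −0.26) and the strain difference in WBC gained it (−1.06 and −1.06). The sex difference in brain turned to −0.0016 with DESeq2 and −0.0046 with edgeR. That in heart turned to 0.0023 with 10 counts in every library, 0.14 with DESeq2, 0.042 with edgeR, 0.36 with library size and 0.29 without miR-126a-3p and miR-1a-3p, and ranged from −0.083 to 0.11, and the strain difference in heart from −0.017 to 0.10.

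In the order of tissues, brain minus heart turned to −0.39 with the geometric mean and −1.16 with TMM, and brain minus lung to −0.28 with TMM. RBC minus WBC was −0.13 with the geometric mean, −0.27 with TMM and 0.53 in C3H alone. In C3H alone WBC minus brain (0.23), WBC minus heart (0.54), brain minus heart (0.35) and WBC minus lung (1.37) did not pass, where the 5 mice with WBC cannot give an exact raw p under 0.0625, and in C57 alone RBC minus brain (0.11) and heart minus lung (0.23) did not. The arm ratio, without 1 animal, ranged from −0.088 to 0.44 in C57 RBC, −0.51 to 0.10 in C57 WBC, −0.48 to 0.057 in C57 brain, −0.050 to 0.69 in C57 heart and −0.20 to 0.43 in C3H lung.

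Counts of miRNAs called varied with the setting. Over the alternatives, irradiation called 18 to 71 in C3H heart (52 as reported), 7 to 28 in C57 heart (11), 69 to 129 in C3H lung (117) and 4 to 84 in C57 lung (58). It called 0 to 17 in C57 brain, 0 to 22 in C3H RBC and 0 to 7 in C57 RBC and C57 WBC, with 0 as reported in each. The lung minus heart irradiation interaction called 3 to 65 in C3H (25) and 1 to 44 in C57 (21). Lung minus heart called 121 to 347 in sham irradiated C3H (258), 127 to 444 in sham irradiated C57 (266), 115 to 308 in irradiated C3H (245) and 99 to 243 in irradiated C57 (207), and its strain difference 38 to 122 (80). The sex difference called 17 to 75 in WBC (38), 23 to 64 in RBC (40) and 13 to 62 in lung (24), and the strain difference 41 to 111 in WBC (76), 29 to 59 in RBC (51) and 48 to 77 in brain (74). Library size moved the split of higher and lower calls from 57 and 60 to 95 and 21 in C3H lung, from 33 and 25 to 60 and 12 in C57 lung, from 12 and 13 to 47 and 6 for the C3H interaction of tissue and irradiation, from 125 higher of 258 calls to 172 and 85 for lung minus heart in sham irradiated C3H, from 127 and 139 to 212 and 82 in sham irradiated C57, from 120 and 125 to 215 and 51 in irradiated C3H and from 104 and 103 to 174 and 54 in irradiated C57, and from 50 and 30 to 27 and 39 for its strain difference. In WBC it moved the split from 19 and 19 to 51 and 2 for sex and from 36 and 40 to 8 and 103 for strain, and in heart from 66 and 62 to 115 and 23 for sex and from 48 and 68 to 96 and 18 for strain.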

Other observations

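Over the 20 means of tissue, strain and arm, 5 of 400 miRNAs were most like mmu-miR-210-3p in log2(RPM + 1). The 400 were those with a mean of at least 10 RPM in 1 group or more, so a miRNA could enter through 1 tissue. They were mmu-miR-30e-5p (Pearson r 0.83, Spearman rho 0.71), mmu-miR-1968-5p (r 0.71, rho 0.58), mmu-miR-130b-5p (r 0.64, rho 0.46), mmu-miR-140-5p (r 0.63, rho 0.58) and mmu-let-7i-3p (r 0.63, rho 0.54). These values describe means that share libraries and scaling, so no p is given. In sham irradiated mice mmu-miR-30e-5p was far more abundant, with a mean of 3414 RPM in lung, 4497 in heart, 3955 in brain and, in blood, 6421 (WBC) and 4809 (RBC). By RPM over both strains together, it was lowest in lung and highest in WBC, like mmu-miR-210-3p. In sham irradiated C3H alone, mmu-miR-210-3p was highest in RBC (mean log2 6.54, against 6.01 in WBC). mmu-miR-140-5p had 264 RPM in lung, 439 in heart and 322 in brain, below the 1119.5 RPM of WBC and the 938 RPM of RBC. Sham irradiated means of mmu-miR-1968-5p were only 0.601 to 1.19 RPM over the solid organs, where 3 counts equal 0.627 to 1.67 RPM. RBC held 3.16 RPM of it, and WBC 25.7 RPM. Lung (1.61 RPM) and heart (1.10 RPM) were also low in mmu-miR-130b-5p, beside 13.2 to 29.9 RPM elsewhere. For both, r says little about likeness among the tissues in which they were that low.

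Within groups, mmu-miR-210-3p varied most in C3H irradiated RBC (CV 60.4%) and C57 sham irradiated RBC (48.7%), and least in C57 irradiated WBC (7.44%) and C3H sham irradiated lung (9.57%). In C3H sham irradiated lung the SD of log2 values, 0.14, was no larger than the 0.16 that counting error alone gives, whereas in C3H irradiated lung it was 0.47 beside 0.16 from counting.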
